A study of Mus musculus with 18 samples.

Results

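Livers of diabetic mice dosed directly with alginate oligosaccharide (AOS, short chains of the sugar acids of brown seaweed) were compared with livers of diabetic mice that were not dosed. The comparison rests on 6 of the 18 liver RNA-seq libraries of the series, 3 libraries labelled HS+A10 and 3 labelled HS, and on the 10204 of 19057 listed genes whose mean over all 18 libraries was at least 1 RPKM (the read number of a gene divided by its length in kilobases and by the total reads). HS mice received a high-fat diet from 3 to 10 weeks of age and a single injection of streptozotocin (STZ, a toxin of the insulin-producing beta cells) at 85 mg/kg at 5 weeks. HS+A10 mice are labelled with high-fat diet, STZ and AOS at 10 mg/kg, but the age, length and route of that dosing and the hour at which livers were collected are not given in the sources used here. All mice were of the outbred ICR strain, male and 10 weeks old.

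Other groups, with 3 libraries each, entered the fit and are given only where they place a result. These were Con (regular diet), A10 (labelled only with AOS at 10 mg/kg), A10-FMT (high-fat diet, STZ, and gut microbiota from donors dosed with AOS at 10 mg/kg) and Con-FMT (high-fat diet, STZ, and gut microbiota from control donors). The labels do not say that each library came from a separate animal, so the p-values measure the spread between libraries. STZ-treated mice on a high-fat diet lose part of their insulin-producing cells without carrying the gene variants of human diabetes, and ICR mice differ genetically from one another.

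The liver burns fatty acids in mitochondria and peroxisomes, builds them from sugar after a meal, and ships them out as triglyceride. The nuclear receptor PPARα switches on the burning genes when fatty acids arrive, and the SREBP factors switch on fatty acid and cholesterol synthesis under insulin or low sterol. A circadian clock runs in every hepatocyte: BMAL1 (gene Arntl) with CLOCK or NPAS2 drives the Per, Cry, Nr1d and Dbp genes, whose proteins repress or relay the signal in a daily cycle. Chaperones of the endoplasmic reticulum (ER) fold the large amount of plasma protein that hepatocytes secrete, and the unfolded protein response raises them when folding lags.

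RPKM sums were 692818 to 739410 in HS and 711510 to 720626 in HS+A10. The steps between low values of 35 genes gave a depth of 0.954 to 0.968 in HS and 0.998 to 1.009 in HS+A10, relative to the mean of the series; the number of reads itself is unknown. Hepatocyte markers were high in all 6 libraries, at a sum of 38801 to 43990 RPKM in HS and 46522 to 49596 RPKM in HS+A10. HS replicate 1 stood apart from its group. Its log2 values correlated with the other HS libraries at a mean r of 0.980 and with the HS+A10 libraries at 0.983. Over the called genes it lay at a median of 29.3% of the way from the mean of the other HS libraries to that of HS+A10. By the same measure HS replicate 2 lay at -12.3% and HS replicate 3 at -21.8%. Values without HS replicate 1 are given beside the main counts and for some of the genes that it changed. Among the genes reported below as called, Abcc2, Acnat2, Apcs, Cdkn1a, Dgat2, Fgl1, Gdpd3, H2-Ea-ps and Nr1d1 lost their call without it.

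At an adjusted p under 0.05, 301 genes (2.95% of those tested) were higher and 446 (4.37%) lower in HS+A10 than in HS, 747 genes or 7.32% in all. The most changed gene was the clock output factor Dbp, and with it moved much of the clock. Of the genes for burning fatty acids, 10 of 21 peroxisomal and 10 of 23 mitochondrial ones rose, 15 of 26 genes for ER chaperones and the unfolded protein response fell, and Nnmt, Mup20, Fgl1 and Igfbp1 were among the genes that fell furthest. Changes were mostly small: the median log2 change was 0.58 over genes called higher and -0.48 over genes called lower, and 42 and 37 genes passed a change of 1. The 3 libraries of HS+A10 lay wholly above or wholly below the 3 of HS in 2794 genes (27.4% of those tested) and in 732 of the 747 called.

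The number of calls depended strongly on single libraries and on the groups in the fit. Left out in turn, HS+A10 replicates 1, 2 and 3 gave 152, 407 and 567 calls, and HS replicates 1, 2 and 3 gave 1233, 221 and 216. Without HS replicate 1, 450 genes were higher and 783 lower (12.1% of those tested), and 646 of the 747 stayed called. In all 6 of these fits 121 genes stayed called in the same direction, 59 higher and 62 lower. With only the HS and HS+A10 libraries in the fit, 76 genes were called. With the libraries brought to a common median the balance turned, with 579 genes higher (5.67%) and 356 lower (3.49%), or 61.9% of calls higher compared to 40.3%. All 301 genes called higher and 342 of the 446 called lower kept their call there.

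**Figure D1:**
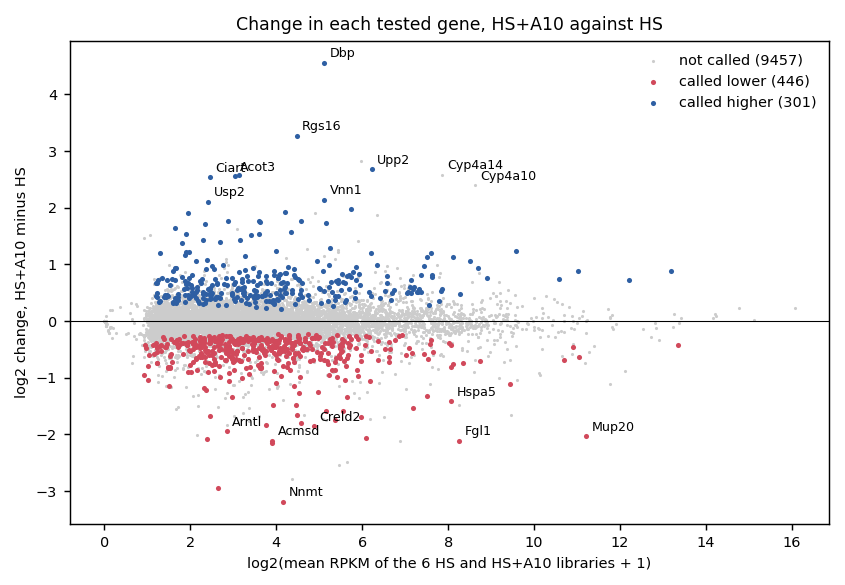
Each point is 1 of the 10204 tested genes, with the log2 of its mean RPKM over the 6 libraries (plus 1) across and the log2 change of HS+A10 against HS upwards; blue points (301) were called higher and red points (446) lower. Dbp stands alone at 4.56, most called genes lie within 1 of no change, and Cyp4a10 and Cyp4a14 show large changes that did not pass the test.

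The genes with the largest rises were led by clock outputs. Dbp, a D-box binding transcription factor of the PAR bZIP family, was at 1.79, 2.22 and 1.17 RPKM in HS and 97.5, 47.3 and 52.8 RPKM in HS+A10. Every HS+A10 library was more than an order of magnitude above every HS library, and its change (log2 change 4.56, SE 0.35, adjusted p = 1.26e-05) had the smallest adjusted p of all tested genes. Rgs16, a regulator of G protein signalling, was at 2.37, 1.44 and 3.53 RPKM in HS and 69.7, 40.3 and 10.4 RPKM in HS+A10, with wide spread within HS+A10 (log2 change 3.27, SE 0.79, adjusted p = 0.025). Upp2, a liver uridine phosphorylase, was at 6.61, 19.6 and 32.8 RPKM in HS and 227.5, 64.7 and 91.9 RPKM in HS+A10 (log2 change 2.68, SE 0.45, adjusted p = 0.00423). Dbp and Upp2 stayed called whichever of the 6 libraries was left out, whereas Rgs16 was lost without HS+A10 replicate 1 or 2 or without HS replicate 2 or 3.

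Acot3, a peroxisomal acyl-CoA thioesterase, was at 2.22, 1.17 and 0.59 RPKM in HS and 17.8, 14.5 and 6.8 RPKM in HS+A10 (log2 change 2.56, SE 0.34, adjusted p = 0.00305). Slc17a8, a vesicular glutamate transporter, was at 8.8, 6.42 and 4.75 RPKM in HS and 32.3, 31.7 and 20.3 RPKM in HS+A10 (1.93, adjusted p = 0.00376). Gpcpd1, which splits glycerophosphocholine, was at 28.3, 13.8 and 17.9 RPKM in HS and 126, 48.3 and 78.4 RPKM in HS+A10 (1.97, adjusted p = 0.00418). These 3 genes stayed called in all 6 fits without a library. Cyp2b13, a cytochrome P450 with near-identical relatives between which reads could be split, was at 2.01, 0.48 and 0.26 RPKM in HS and 33, 7.48 and 3.12 RPKM in HS+A10 (2.57, adjusted p = 0.0146), so that its group mean rested largely on HS+A10 replicate 1. Without HS replicates 2 or 3 its adjusted p was 0.059 and 0.0662. The keratin gene Krt23 was at 12.9, 1.73 and 2.25 RPKM in HS and 23.2, 13.4 and 13.1 RPKM in HS+A10 (1.77, adjusted p = 0.0428), and HS replicate 1 lay near the lowest HS+A10 libraries. Its call was lost without any library other than HS replicate 1, with adjusted p from 0.0606 to 0.167.

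Among the genes that fell furthest was Nnmt, which methylates nicotinamide. It was at 13.9, 51.3 and 28.9 RPKM in HS and 1.95, 3.5 and 1.34 RPKM in HS+A10, all 3 HS+A10 libraries below all 3 of HS (log2 change -3.18, SE 0.81, adjusted p = 0.0295). The call was lost when any library other than HS replicate 1 was left out, with adjusted p from 0.0515 to 0.121. Acmsd, an enzyme of tryptophan breakdown that draws intermediates away from NAD synthesis, was at 6.39, 30.6 and 35.8 RPKM in HS and 3.1, 3.57 and 4.69 RPKM in HS+A10 (log2 change -2.11, SE 0.45, adjusted p = 0.0146). HS replicate 1 was again the HS library nearest to HS+A10. Without it the log2 change was -2.85, adjusted p = 0.000262, while the call was lost without HS+A10 replicate 1, HS replicate 2 or HS replicate 3 (adjusted p = 0.0683, 0.0682 and 0.0705).

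Mup20 (darcin), a major urinary protein that acts as a male scent signal, was at 2367, 4565 and 4515 RPKM in HS and 928.8, 627.8 and 1229.6 RPKM in HS+A10, with no overlap (log2 change -2.03, SE 0.37, adjusted p = 0.00705). It stayed called in all 6 fits without a library, although reads of the closely related Mup genes could be split between them. Fgl1, a secreted fibrinogen-like protein, was at 704.3, 557.4 and 253.4 RPKM in HS and 95.8, 111.2 and 113.5 RPKM in HS+A10 (-2.11, adjusted p = 0.0253). Igfbp1, an insulin-repressed binding protein for insulin-like growth factors, was at 25.6, 48 and 34.9 RPKM in HS and 8.49, 9.41 and 10.5 RPKM in HS+A10 (-1.79, adjusted p = 0.0318). Tubb2a, a beta tubulin, was at 90.8, 95.5 and 129.3 RPKM in HS and 9.5, 45.4 and 31.7 RPKM in HS+A10 (-2.06, adjusted p = 0.0164). Fgl1, Igfbp1 and Tubb2a each lost their call in at least 3 of the 6 fits without a library. Their adjusted p over all alternatives ran from 0.021 to 0.0978, 0.0107 to 0.124 and 0.0105 to 0.0919. Cdc42ep5, an effector of the GTPase CDC42, was at 15.1, 34 and 22.1 RPKM in HS and 4.77, 5.18 and 3.24 RPKM in HS+A10 (-2.14, adjusted p = 0.0275), and Acnat2, an acyl-CoA amino acid N-acyltransferase, was at 23.3, 21.6 and 15.8 RPKM in HS and 4.3, 6.31 and 4.19 RPKM in HS+A10 (-1.84, adjusted p = 0.0315). H2-Ea-ps, an MHC class II pseudogene, was at 8.51, 7.34 and 6.11 RPKM in HS and 0.1, 2.52 and 0.96 RPKM in HS+A10 (-2.07, adjusted p = 0.0344). Gdpd3, a glycerophosphodiester phosphodiesterase, was at 13.3, 0.7 and 17.7 RPKM in HS and listed at 0 in all 3 HS+A10 libraries (adjusted p = 0.0444). Acnat2 lost its call in all 6 fits without a library, and Cdc42ep5, H2-Ea-ps and Gdpd3 in 5 of the 6 each.

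Of 23 clock genes tested, 9 were higher and 5 lower in HS+A10 (60.9% called, against 7.32% of all tested genes), and 16 of the 23 did not overlap between the groups, against 27.4% of all tested genes. The positive arm fell. Arntl, which encodes BMAL1, was at 8.84, 8.86 and 13.4 RPKM in HS and 0.7, 2.97 and 2.65 RPKM in HS+A10 (log2 change -1.94, SE 0.36, adjusted p = 0.00773). Its partner Npas2 was at 1.85, 1.48 and 1.87 RPKM in HS and 0.12, 0.53 and 0.39 RPKM in HS+A10 (-1.03, adjusted p = 0.00418), and Clock at 6.14, 6.91 and 6.87 RPKM in HS and 3.49, 4.97 and 4.96 RPKM in HS+A10 (-0.49, adjusted p = 0.0253). All 3 HS+A10 libraries lay below all 3 of HS for each. Cry1, a repressor of the BMAL1 complex, was at 5.73, 5.26 and 6.78 RPKM in HS and 1.71, 2.09 and 2.41 RPKM in HS+A10 (-1.17, adjusted p = 0.0041), and Nfil3, the repressor that competes with DBP for D-boxes, at 14.8, 19.6 and 30.7 RPKM in HS and 5.1, 7.94 and 7.81 RPKM in HS+A10 (-1.47, adjusted p = 0.00863).

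The 9 clock genes called higher held other repressors and the outputs. Per3 was at 0.32, 0.69 and 0.7 RPKM in HS and 7.36, 3.41 and 4.53 RPKM in HS+A10 (1.92, adjusted p = 0.00376) and Ciart, a repressor also called CHRONO, at 0.32, 0.42 and 0.32 RPKM in HS and 16.9, 2.84 and 6.09 RPKM in HS+A10 (2.54, adjusted p = 0.00376). Nr1d1 and Nr1d2 encode the heme receptors REV-ERBα and REV-ERBβ, which repress Arntl. Nr1d2 was at 8.88, 8.41 and 8.18 RPKM in HS and 23.8, 20.1 and 20.1 RPKM in HS+A10 (1.23, adjusted p = 0.00309) and Nr1d1 at 17.2, 20.1 and 27 RPKM in HS and 49.7, 58.5 and 50.7 RPKM in HS+A10 (1.29, adjusted p = 0.0428), the latter lost in each of the 6 fits without a library. The PAR bZIP factors beside Dbp moved the same way, with Tef at 9.88, 10.6 and 8.36 RPKM in HS and 48.7, 26.6 and 33.1 RPKM in HS+A10 (1.77, adjusted p = 0.00394) and Hlf at 6.71, 6.92 and 5.29 RPKM in HS and 13, 10.7 and 11.3 RPKM in HS+A10 (0.79, adjusted p = 0.00676). Cry2 rose by 0.88 and the clock-controlled deubiquitinase Usp2 by 2.11 on the log2 scale. Per1 and Per2 did not pass, at 1.31, 4.09 and 2.78 RPKM in HS and 5.65, 2.62 and 3.14 RPKM in HS+A10 and at 1.89, 3.85 and 4.63 RPKM in HS and 6.36, 2.71 and 4.91 RPKM in HS+A10, and their groups overlapped.

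The clock calls were among the least dependent on single libraries. Whichever of the 6 libraries was left out, 8 clock genes were higher and 3 to 5 lower, fewest without HS+A10 replicate 1; with only HS and HS+A10 in the fit 6 were higher and 2 lower. The levels in the other groups fell on either side. Dbp was at 0.66, 0.58 and 0.68 RPKM in Con and 3.41, 0.36 and 1.78 RPKM in A10, near HS, and at 98.8, 48.8 and 86.2 RPKM in A10-FMT and 51.8, 55.5 and 53 RPKM in Con-FMT, near HS+A10. Arntl was at 11.7 ± 1.44 in Con and 11.9 ± 0.78 in A10, and at 1.75 ± 1.19 in A10-FMT and 2.59 ± 2.02 in Con-FMT (RPKM, mean ± SD, n = 3). Con-FMT mice were given no AOS and no microbiota of AOS-dosed donors. Hlf and Nfil3 did not follow this split, with Con-FMT at 6.02 ± 1.5 and 26 ± 6.76 RPKM, near the HS means of 6.31 ± 0.89 and 21.7 ± 8.18. Con-FMT replicate 3 stood apart from its group, at r of 0.955 and 0.951 with Con-FMT replicates 1 and 2, which correlated at 0.984. Its removal from the fit, chosen after its pancreatic marker sum was seen, is given in the last section. The part of this library in the Con-FMT means was not tested.

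**Figure D2:**
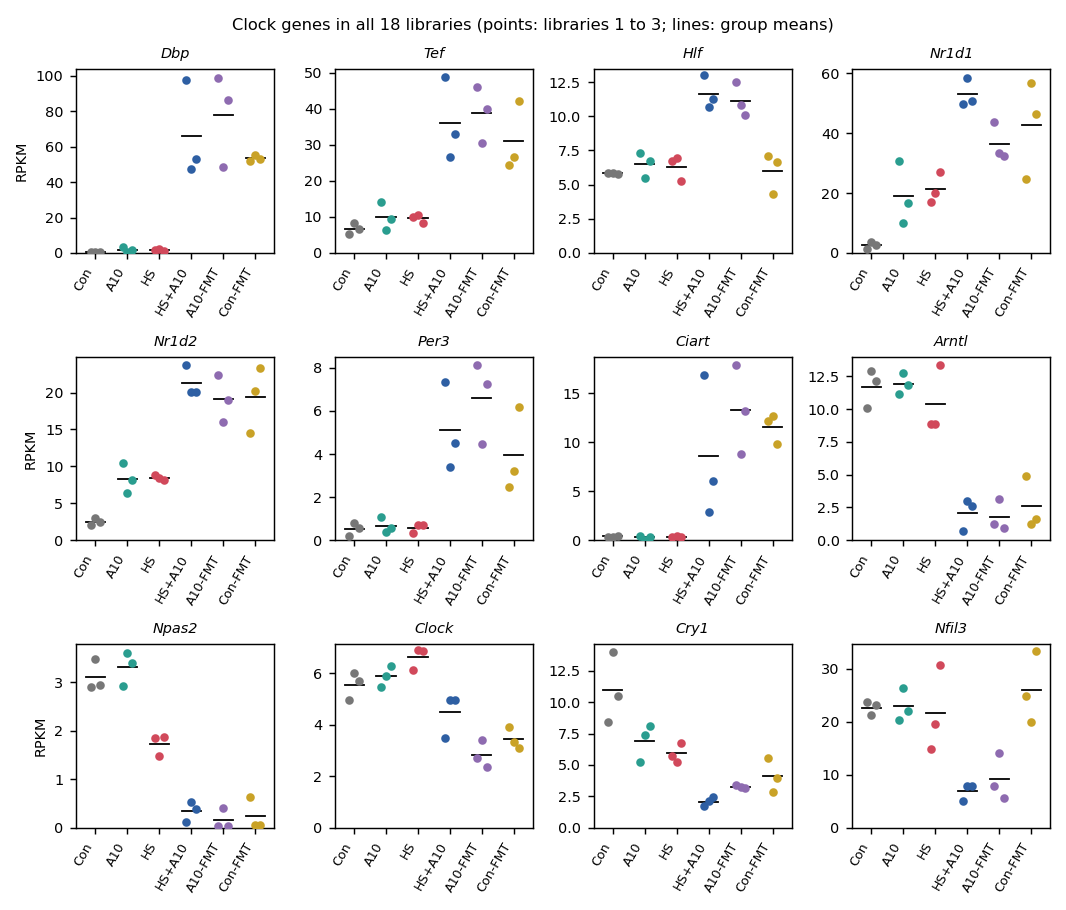
RPKM of 12 called clock genes in the 3 libraries of each of the 6 groups, with points for libraries and a line for the group mean; each panel starts at 0. Dbp, Tef, Per3 and Ciart are low in Con, A10 and HS and high in HS+A10, A10-FMT and Con-FMT, and Arntl and Npas2 show the opposite, whereas Hlf and Nfil3 in Con-FMT lie with HS.

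The promoters of 3 of the called clock genes are shown because they hold the elements through which the clock acts. All 14 called clock genes had a window of 300 bases, from 250 before to 50 after a start, in the RefSeq table of GRCm38.p6. Both strands were searched for the E-box CACGTG (bound by BMAL1 with CLOCK or NPAS2), the D-box TTATGTAA or TTACGTAA (bound by DBP, TEF, HLF and NFIL3) and the ROR element core TAGGTCA (bound by ROR and REV-ERB receptors). Ciart (chr3:95882179-95882478, minus strand) held 3 E-boxes, Per3 (chr4:151044616-151044915, minus strand) 2 D-boxes, and Arntl (chr7:113207261-113207560, plus strand) 1 ROR element core, all in capitals below, 5′ to 3′.
Ciart: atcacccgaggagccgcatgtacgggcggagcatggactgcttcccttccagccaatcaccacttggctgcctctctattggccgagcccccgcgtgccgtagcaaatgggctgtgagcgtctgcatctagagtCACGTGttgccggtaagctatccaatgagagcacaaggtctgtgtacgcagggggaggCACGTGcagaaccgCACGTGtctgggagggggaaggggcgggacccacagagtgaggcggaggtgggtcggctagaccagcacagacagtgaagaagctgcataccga
Per3: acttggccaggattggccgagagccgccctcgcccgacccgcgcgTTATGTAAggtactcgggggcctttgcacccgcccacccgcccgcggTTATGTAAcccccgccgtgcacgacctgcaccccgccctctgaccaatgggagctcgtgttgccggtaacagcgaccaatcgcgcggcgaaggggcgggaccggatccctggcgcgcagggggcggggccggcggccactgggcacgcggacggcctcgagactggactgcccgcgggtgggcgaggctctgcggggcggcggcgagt
Arntl: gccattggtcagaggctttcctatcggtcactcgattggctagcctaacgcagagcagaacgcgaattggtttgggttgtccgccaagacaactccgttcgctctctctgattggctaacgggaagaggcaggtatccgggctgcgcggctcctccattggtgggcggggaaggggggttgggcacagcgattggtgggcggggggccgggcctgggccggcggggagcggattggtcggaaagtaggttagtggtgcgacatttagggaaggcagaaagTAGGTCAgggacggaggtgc

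Of the 9 clock genes called higher, an E-box was found in 2 (Tef and Ciart), a D-box in 1 (Per3) and the ROR element core in 0. Of the 5 called lower, the ROR element core was found in 2 (Arntl and Nfil3), an E-box in 1 (Cry1) and a D-box in 0. Of the 9 tested clock genes not called, 4 had a window, with an E-box in 1 (Per1) and a D-box or ROR element core in 0. Over 27025 genes in that table, 8.09% held the E-box, 1.23% a D-box and 2.97% the ROR element core. The list was made of known clock genes, so the matches are a feature of the list and not independent evidence of its direction. These are matches of letters in a short window, and elements farther from the start were not searched. By GENCODE M21 (GRCm38), Ciart lies on chromosome 3 at 95878503 to 95882251, Per3 on chromosome 4 at 151003652 to 151044665, Arntl on chromosome 7 at 113207465 to 113314126 and Dbp on chromosome 7 at 45705088 to 45710203, all protein-coding.

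Part of the genes that burn fatty acids rose. Of 21 tested genes of peroxisomal beta-oxidation and peroxisome growth, 10 rose and 0 fell (47.6% called), with a median log2 change of 0.57 compared to -0.03 over all tested genes. Ehhadh, the peroxisomal bifunctional enzyme, was at 207.9, 83.1 and 81.9 RPKM in HS and 255.9, 236.6 and 289.6 RPKM in HS+A10 (a 2.1-fold higher mean, adjusted p = 0.0188), and HS replicate 1 lay much nearer to HS+A10 than the other HS libraries. Acaa1a and Acaa1b, near-identical thiolases between which reads could be split, rose by 0.72 and 1.24. Abcd3, a peroxisomal transporter of fatty acyl-CoA, was at 115.4, 119.8 and 112.2 RPKM in HS and 167.4, 181.5 and 168.8 RPKM in HS+A10 (0.57, adjusted p = 0.00808), and Pex11a, which divides peroxisomes, rose by 0.84 on the log2 scale.

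Of 23 tested genes of mitochondrial beta-oxidation and ketone synthesis, 10 rose and 0 fell (43.5% called, median log2 change 0.51). Decr1, which handles unsaturated fatty acids, was at 93, 65.7 and 50.2 RPKM in HS and 125.2, 124.5 and 106.3 RPKM in HS+A10 (0.80, adjusted p = 0.0171). The groups did not overlap, and HS replicate 1 was the highest HS library. Cpt1a, the gate of fatty acid entry into mitochondria, overlapped at 128.4, 89.5 and 69.2 RPKM in HS and 159.1, 130.1 and 108.6 RPKM in HS+A10 (0.50, adjusted p = 0.113).

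Of 21 tested targets of PPARα, a list that shares a gene with the mitochondrial one, 8 rose and 0 fell (38.1% called, median log2 change 0.89). Ppara itself was at 23, 17.5 and 16.7 RPKM in HS and 42.9, 41.8 and 37.8 RPKM in HS+A10, every HS+A10 library well above every HS library (log2 change 1.07, SE 0.21, adjusted p = 0.0106). Cd36, a fatty acid transporter, was at 8.48, 11.8 and 7.22 RPKM in HS and 34.6, 34 and 19.8 RPKM in HS+A10 (1.57, adjusted p = 0.0113), and Vnn1, a pantetheinase, at 34.9, 12.7 and 2.25 RPKM in HS and 53, 51.4 and 47.9 RPKM in HS+A10 (2.14, adjusted p = 0.0468). Fabp1, the main fatty acid binding protein of the liver, was at 8659, 6477 and 4666 RPKM in HS and 11578, 13702 and 10474 RPKM in HS+A10 (0.89 on the log2 scale). Cyp4a10 and Cyp4a14, fatty acid omega-hydroxylases with similar sequences, had larger changes that did not pass, at 241.1, 182.3 and 35.5 RPKM in HS and 864.3, 541 and 501.3 RPKM in HS+A10 (2.39, adjusted p = 0.0773) and at 127.4, 138.6 and 11.4 RPKM in HS and 386.2, 283.2 and 432.4 RPKM in HS+A10 (2.58, adjusted p = 0.0961). The groups did not overlap for either gene, but HS replicate 3 was several times lower than the other HS libraries. Fgf21, a fasting hormone, and Pdk4, which blocks pyruvate oxidation, did not pass, with log2 changes of -0.90 and -0.27.

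These counts rested on single libraries of both groups. Without HS replicate 1, 13 peroxisomal, 18 mitochondrial and 15 PPARα target genes were higher. Without HS replicate 2 the counts were 4, 0 and 3, and without HS replicate 3 they were 3, 0 and 2. Without HS+A10 replicates 1, 2 and 3 the peroxisomal counts were 3, 7 and 8, the mitochondrial counts 0, 0 and 3, and the PPARα target counts 0, 3 and 3. With only HS and HS+A10 in the fit they were 3, 0 and 2. Every median stayed above 0 in all of these.

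**Figure D3:**
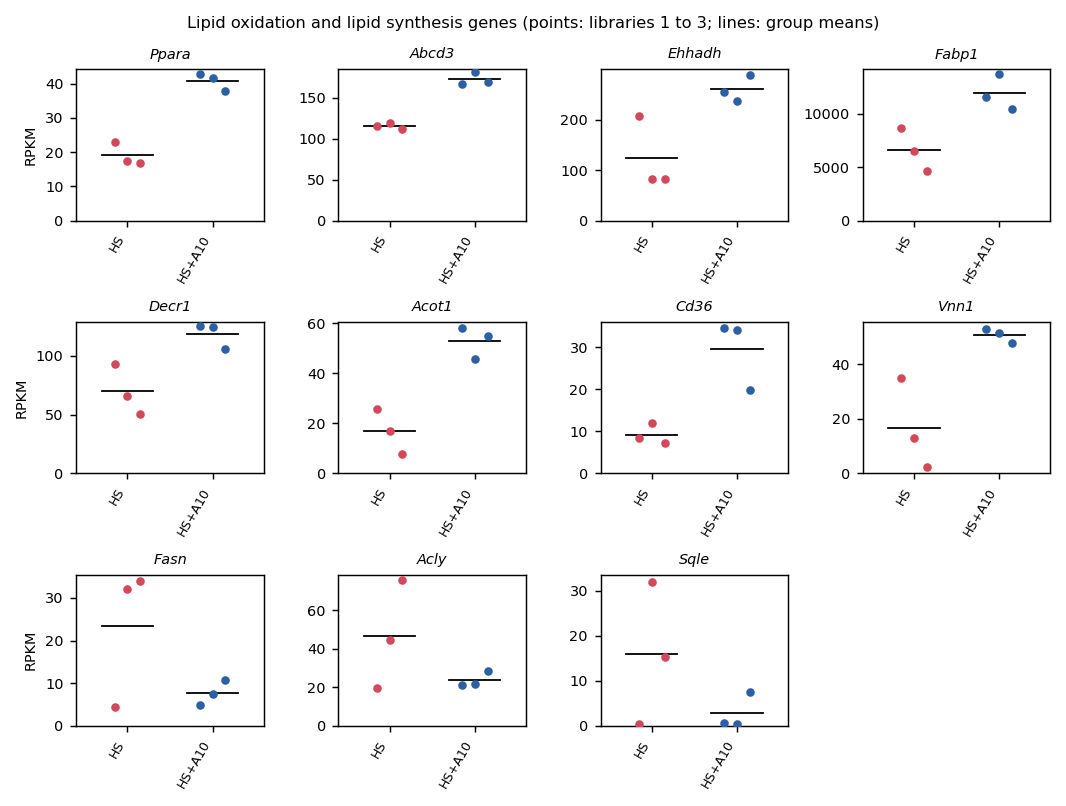
RPKM of 8 fatty acid oxidation, uptake and PPARα genes and of 3 synthesis genes (Fasn, Acly and Sqle) in the 3 HS and 3 HS+A10 libraries, with a line for each group mean; each panel starts at 0. The oxidation genes shown separate the groups, and the first HS point lies apart from the other HS points, high in Ehhadh, Fabp1, Decr1, Acot1 and Vnn1 and low in Fasn, Acly and Sqle.

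Synthesis of fatty acids and cholesterol did not pass the test with all 6 libraries and depended on HS replicate 1. Of 24 tested genes of cholesterol synthesis and uptake, 0 were called although all 24 had a log2 change below 0, with a median of -0.94. Sqle (squalene epoxidase) was at 0.4, 32 and 15.3 RPKM in HS and 0.6, 0.42 and 7.54 RPKM in HS+A10. There HS replicate 1 lay as low as the lower HS+A10 libraries. Without that library 22 of the 24 genes were lower, with a median of -1.62. Of 18 tested fatty acid synthesis genes 0 were called, and 8 were lower without HS replicate 1. Fasn (fatty acid synthase) was at 4.37, 32 and 34 RPKM in HS and 4.81, 7.5 and 10.8 RPKM in HS+A10 with -1.14, adjusted p = 0.254, and without that library at -2.02, adjusted p = 0.0101. Without any other 1 of the 6 libraries neither list held a call.

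In triglyceride synthesis, storage and secretion, 5 of 23 tested genes rose and 1 fell (26.1% called, median log2 change 0.21). Mogat1, a monoacylglycerol acyltransferase, was at 2.07, 1.09 and 0.67 RPKM in HS and 4.27, 5.29 and 3.1 RPKM in HS+A10 (1.22, adjusted p = 0.0075), and Cidec, a lipid droplet protein, at 5.12, 2.89 and 0.65 RPKM in HS and 9.51, 6.54 and 8.18 RPKM in HS+A10 (1.40, adjusted p = 0.0171). Lpin2, a phosphatidate phosphatase, was at 13.5, 17 and 17.6 RPKM in HS and 31.8, 24 and 26.6 RPKM in HS+A10 (0.74, adjusted p = 0.00394). No library of HS reached those of HS+A10 in these 3 genes. Pnpla2, the main triglyceride lipase, and Dgat2 rose by 0.52 and 0.51, and Tm6sf2, needed for full lipidation of VLDL, fell by 0.49 on the log2 scale. Mttp, which loads lipid onto apolipoprotein B, was at 78.4, 83.4 and 72.5 RPKM in HS and 76.5, 84 and 83 RPKM in HS+A10. Left out in turn, the libraries gave 1 to 6 genes higher in the list, 1 of them without HS+A10 replicate 1.

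For bile acids, 3 of 22 tested genes rose and 0 fell (13.6% called, against 7.32% of all tested genes). Nr1h4, the bile acid receptor FXR, was at 70.8, 58.9 and 55.1 RPKM in HS and 87.7, 88.2 and 74.9 RPKM in HS+A10 (0.44, adjusted p = 0.0477), and the canalicular transporters Abcc2 and Abcg8 rose by 0.56 and 0.99. Cyp7a1, the limiting enzyme of bile acid synthesis, overlapped at 5.36, 45.7 and 22.5 RPKM in HS and 20.1, 14.2 and 19.9 RPKM in HS+A10. In retinoid metabolism 3 of 18 genes rose and 1 fell (22.2% called). Retsat (retinol saturase) was at 392, 212.2 and 142.8 RPKM in HS and 490.2, 447.9 and 501.7 RPKM in HS+A10 (1.07, adjusted p = 0.0495), Rdh16 and Dhrs4 were up by 0.89 and 0.49, and Stra6l was down at a log2 change of -0.42. Without HS replicate 2 or without HS+A10 replicate 1, 0 genes of either list were called, and without HS replicate 1 the bile acid list held 4 higher and 2 lower genes and the retinoid list 3 higher and 3 lower.

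The study named 13 genes or proteins of liver lipid, bile acid and retinoid handling, and 11 passed the filter (Bcl2 and Dhrs9 did not). Of the 11, 3 rose (27.3%, Acaa1a and Nr1h4 among them) and 0 fell. Acaa2, a mitochondrial thiolase, was at 558.2, 450.6 and 390.7 RPKM in HS and 681, 625.8 and 588.4 RPKM in HS+A10 (0.45, adjusted p = 0.0622), and Nr1h3 (the sterol receptor LXRα) at 42.3, 48.4 and 50.5 RPKM in HS and 39.9, 41.7 and 35.3 RPKM in HS+A10 (-0.27, adjusted p = 0.0546). Acox2, which shortens bile acid side chains, and Rbp4, the plasma carrier of retinol, overlapped between the groups with log2 changes of -0.08 and 0.05. Acaa1a and Nr1h4 each lost the call when some single libraries were left out.

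Few genes of sugar handling were called. Of 19 tested genes of gluconeogenesis and glycogen, Gys2, the liver glycogen synthase, was the only call (5.26%, against 7.32% of all tested genes). It was at 47.8, 42.9 and 37.9 RPKM in HS and 134.9, 83.3 and 88.7 RPKM in HS+A10 (log2 change 1.21, SE 0.17, adjusted p = 0.00305), and it stood without any 1 library (5 genes of the list were higher after median scaling). Pck1, which commits carbon to gluconeogenesis, was at 1084, 1045 and 941.3 RPKM in HS and 1243, 887.7 and 1106 RPKM in HS+A10, and G6pc, which releases free glucose, at 314.6, 341.9 and 258.9 RPKM in HS and 177, 233.6 and 286.6 RPKM in HS+A10. Neither passed (adjusted p = 0.808 and 0.362) and both overlapped. Of 22 tested genes of glucose uptake and glycolysis 0 were called. Without HS replicate 1 the first list held 3 higher and 2 lower genes and the second 1 lower. Of 23 tested insulin and growth hormone signalling genes 1 rose and 1 fell (8.7% called, against 7.32% of all tested genes). Trib3, an inhibitor of AKT, was at 7.25, 4.45 and 4.1 RPKM in HS and 19.8, 14.7 and 15.9 RPKM in HS+A10 (1.53, adjusted p = 0.00382), the faller was Igfbp1, and Insr, Irs1 and Irs2 did not pass, with log2 changes of 0.31, -0.21 and -0.34.

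Of 26 tested genes of ER chaperones and the unfolded protein response 0 rose, 15 fell and 11 did not pass (57.7% called, median log2 change -0.52). Hspa5, which encodes the central chaperone BiP, was at 232, 499.4 and 444.4 RPKM in HS and 104.5, 152.4 and 167.6 RPKM in HS+A10 (log2 change -1.42, SE 0.28, adjusted p = 0.00951). Creld2, a secreted ER stress protein, was at 23, 63.2 and 51.1 RPKM in HS and 9.75, 11.6 and 11.6 RPKM in HS+A10 (log2 change -1.85, SE 0.35, adjusted p = 0.0075). Sdf2l1, part of an ER chaperone complex, was at 18.4, 48.2 and 33.7 RPKM in HS and 6.81, 10.2 and 11.1 RPKM in HS+A10 (-1.66, adjusted p = 0.00418). In these 3 genes every HS+A10 library lay below every HS library, and HS replicate 1 was the lowest HS library. Syvn1, the ubiquitin ligase of ER-associated degradation, fell by 1.25 on the log2 scale (adjusted p = 0.00539), and the disulfide isomerase Pdia4 by 1.05 (adjusted p = 0.00623). Manf, Hyou1, Hsp90b1 and Calr changed by -1.74, -1.58, -0.76 and -0.71.

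Among the sensors and factors of the response, Xbp1 was at 90.9, 82.6 and 78.2 RPKM in HS and 68.8, 66.4 and 65.5 RPKM in HS+A10 (-0.32, adjusted p = 0.0716), and Atf6 and Ern1, which encodes the sensor IRE1, did not pass, at -0.08 and -0.21. Of 19 tested genes of the ATF4 branch 2 rose and 2 fell (21.1% called, against 7.32% of all tested genes). Atf4 was at 60.5, 88.2 and 81.1 RPKM in HS and 42.8, 45.7 and 49.5 RPKM in HS+A10 (-0.71, adjusted p = 0.0146), and Eif2ak3, which encodes the sensor PERK, fell by 0.59 on the log2 scale. Trib3 and Sesn2, both raised by ATF4 in stressed cells, rose by 1.53 and 0.67. The ATF4 list held 3 higher and 5 lower genes without HS replicate 1, and 1 or 2 higher and 0 lower without HS+A10 replicate 1, HS replicate 2 or HS replicate 3. Without HS replicate 1 the ER list held 18 lower genes. Without HS replicates 2 and 3 it held 8 and 9, and without HS+A10 replicates 1, 2 and 3 it held 5, 12 and 14. With only HS and HS+A10 in the fit 0 were called. Hspa5 was at 291.1 ± 11.2 RPKM in Con and 642.9 ± 135.1 RPKM in Con-FMT (mean ± SD, n = 3), below and above the HS mean of 391.9 ± 141.2. The Con-FMT mean includes replicate 3, which stood apart from its group and was singled out for its pancreatic marker sum. The part of that library in the Con-FMT level of Hspa5 was not tested.

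Of the 15 called ER genes, 13 had a promoter window in the RefSeq table, and 7 of these held the ER stress element (CCAAT, 9 bases of any kind, then CCACG, on either strand), through which ATF6 and XBP1 act. They were Hspa5, Hsp90b1, Calr, Pdia6, Dnajc3, Creld2 and Syvn1. Among the tested members that were not called, 2 of 9 with a window held it (Canx and Derl3), and of all 27025 genes 0.137% did. The list was made of known chaperones of this response, so the match is a feature of the list and not independent evidence of its direction. The 3 windows below are those of genes described above or of the ER form of HSP90, with the fixed bases of the element in capitals, or of its reverse complement in Creld2 and in the second match of Hsp90b1: Hspa5 (chr2:34771840-34772139, plus strand), Creld2 (chr15:88819396-88819695, plus strand) and Hsp90b1 (chr10:86705395-86705694, minus strand).
Hspa5: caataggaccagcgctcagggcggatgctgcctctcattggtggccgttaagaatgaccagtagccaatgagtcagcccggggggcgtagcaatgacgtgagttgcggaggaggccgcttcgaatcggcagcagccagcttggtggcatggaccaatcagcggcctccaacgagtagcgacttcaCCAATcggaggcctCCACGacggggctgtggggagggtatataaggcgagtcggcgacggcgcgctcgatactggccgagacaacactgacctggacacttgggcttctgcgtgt
Creld2: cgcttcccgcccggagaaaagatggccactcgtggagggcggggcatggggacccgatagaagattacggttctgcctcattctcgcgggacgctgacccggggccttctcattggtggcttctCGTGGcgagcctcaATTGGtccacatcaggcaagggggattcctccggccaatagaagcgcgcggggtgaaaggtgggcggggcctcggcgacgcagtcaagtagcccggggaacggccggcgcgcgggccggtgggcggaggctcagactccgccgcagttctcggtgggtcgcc
Hsp90b1: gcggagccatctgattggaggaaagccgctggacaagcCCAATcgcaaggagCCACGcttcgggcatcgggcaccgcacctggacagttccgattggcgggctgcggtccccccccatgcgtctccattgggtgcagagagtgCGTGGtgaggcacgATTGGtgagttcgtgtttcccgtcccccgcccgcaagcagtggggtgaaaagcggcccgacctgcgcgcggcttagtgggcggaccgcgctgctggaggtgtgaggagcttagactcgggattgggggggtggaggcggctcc

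**Figure D4:**
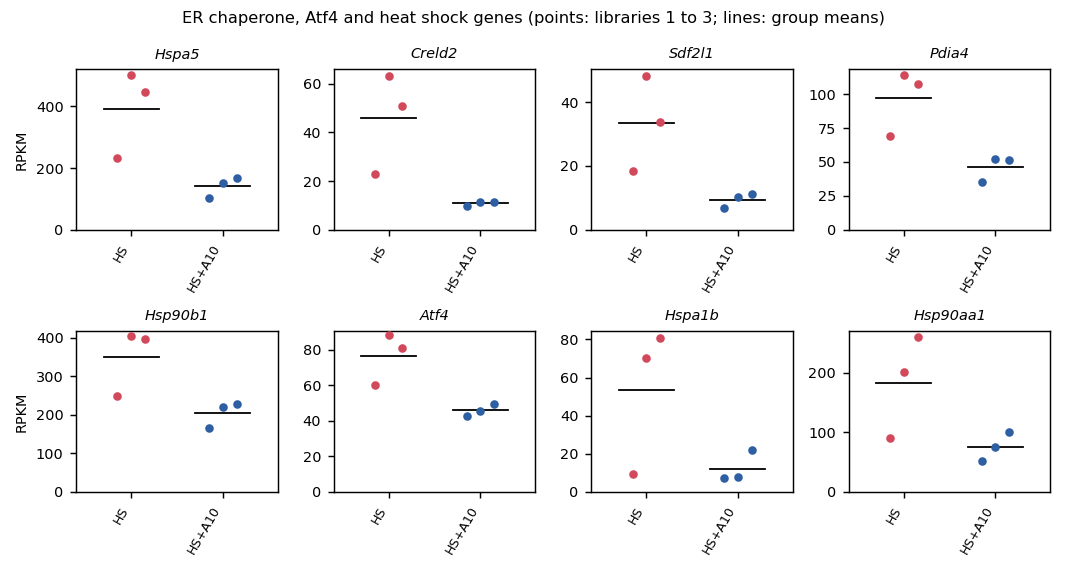
RPKM of 5 ER chaperone genes, Atf4 and the heat shock genes Hspa1b and Hsp90aa1 in the 3 HS and 3 HS+A10 libraries, with a line for each group mean; each panel starts at 0. All 3 HS+A10 points lie below all 3 HS points in Hspa5, Creld2, Sdf2l1, Pdia4, Hsp90b1 and Atf4, whereas in Hspa1b and Hsp90aa1 the first HS point lies among those of HS+A10.

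Cytosolic heat shock proteins fell in part. Of 21 tested genes 0 rose and 7 fell (33.3% called), with a median log2 change of -0.74 and all 21 below 0. Hspb1, a small heat shock protein, was at 45.1, 127.5 and 116.1 RPKM in HS and 16.9, 24.7 and 43.2 RPKM in HS+A10 (-1.70 on the log2 scale), and Hsf1, the factor that drives these genes, at 8.74, 8.54 and 9.31 RPKM in HS and 7.31, 6.73 and 6.95 RPKM in HS+A10 (-0.30, adjusted p = 0.0192). The inducible Hspa1b was at 9.15, 70.2 and 80.6 RPKM in HS and 7.18, 7.74 and 21.7 RPKM in HS+A10 (-1.73, adjusted p = 0.216), and reads of the twin gene Hspa1a could be split with it. HS replicate 1 was at the level of HS+A10 for Hspa1b, and without it 17 genes of the list were lower. Without HS+A10 replicate 1 or HS replicate 3, 0 were called, without HS+A10 replicate 2, 1 and without HS replicate 2, 2. Of 18 immediate-early genes 1 rose and 1 fell (11.1% called, against 7.32% of all tested genes). Maff rose, at 1.52, 1.17 and 1.04 RPKM in HS and 4.39, 3.38 and 4.4 RPKM in HS+A10 (1.17, adjusted p = 0.00376), Ier5 fell, at 3.51, 2.82 and 1.88 RPKM in HS and 0.96, 1.31 and 0.97 RPKM in HS+A10 (-0.83, adjusted p = 0.00778), and Fos, Jun and Egr1 did not pass.

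Plasma proteins of inflammation were lower in part. Of 24 tested acute phase genes 0 rose and 5 fell (20.8% called, median log2 change -0.61). Apcs, which encodes serum amyloid P, was at 217.2, 202.8 and 209.8 RPKM in HS and 45.2, 110.1 and 73.8 RPKM in HS+A10 (-1.54, adjusted p = 0.0453), Fga (fibrinogen alpha chain) at 2349, 1927 and 1847 RPKM in HS and 1099.6, 1363 and 1319 RPKM in HS+A10 (-0.69, adjusted p = 0.0173), and Stat3, the factor that relays interleukin-6, at 26.5, 27.6 and 28.7 RPKM in HS and 16.9, 17.7 and 18.3 RPKM in HS+A10 (-0.62, adjusted p = 0.0153). The groups did not overlap in these 3, but Apcs lost its call without any library other than HS+A10 replicate 2 (adjusted p = 0.0629 to 0.192). Saa1 and Saa2, acute phase apolipoproteins with near-identical sequences, were at 353.7, 162.2 and 67.3 RPKM in HS and 31, 60.6 and 24.1 RPKM in HS+A10 and at 132.9, 87.6 and 33.3 RPKM in HS and 9.83, 21 and 8.8 RPKM in HS+A10, without overlap but not called (adjusted p = 0.152 and 0.0914). Left out in turn, the libraries gave 0 to 5 calls in this list, 0 without HS+A10 replicate 1, 1 without HS replicate 2, 2 without HS replicate 3 and 3 without HS replicate 1.

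Of 29 complement and coagulation genes, C3 and Cfi fell, by 0.45 and 0.43 on the log2 scale (6.9% called, against 7.32% of all tested genes). C3 lost its call without any library other than HS replicate 1. Of 23 interferon-stimulated genes all had a log2 change below 0 (median -0.54), and 1 was called (4.35%, below the 7.32% of all tested genes). This was Stat2, at 16.4, 18.5 and 22.6 RPKM in HS and 9.62, 11.7 and 13.2 RPKM in HS+A10 (-0.69, adjusted p = 0.00818). Isg15, an interferon-induced ubiquitin-like protein, was at 22.9, 16.4 and 24.3 RPKM in HS and 7.05, 6.24 and 14.4 RPKM in HS+A10 (-1.19, adjusted p = 0.082). Of 20 MHC and antigen presentation genes 0 were called by limma at an adjusted p under 0.05, and H2-K1, a class I heavy chain, was at 403, 412.2 and 419.1 RPKM in HS and 264.1, 285.3 and 308.1 RPKM in HS+A10 (-0.53, adjusted p = 0.0955). Complement and coagulation held 0 calls without HS+A10 replicate 1 and 1 to 2 without each other library, and interferon-stimulated genes held 0 without HS+A10 replicate 1 and 2 without HS+A10 replicate 3 or HS replicate 1.

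Few genes of growth and protein turnover were called. Of 65 cytosolic ribosomal protein genes and 50 genes of oxidative phosphorylation 0 were called in each, with median log2 changes of -0.10 and 0.04. Of 35 ribosome biogenesis genes 3 fell (8.57%), led by Nop58, a core protein of box C/D snoRNPs, at 13.2, 14 and 13.8 RPKM in HS and 7.12, 8.79 and 9.64 RPKM in HS+A10 (-0.63, adjusted p = 0.00418). Of 24 SR splicing factors and cold-inducible RNA-binding proteins 5 fell (20.8%, against 7.32% of all tested genes), led by Srsf3 at 17.8, 17.2 and 16.8 RPKM in HS and 10.3, 11.6 and 12.3 RPKM in HS+A10 (-0.56, adjusted p = 0.00305). Nop58 and Srsf3 were called without each of the 6 libraries, while each list held 1 lower gene without HS+A10 replicate 1, HS replicate 2 or HS replicate 3. Without HS replicate 1, 6 ribosome biogenesis genes and 2 ribosomal protein genes were lower. The proteasome had 1 call of 31 tested genes (3.23%), and cell cycle genes 0 of 9. Of 25 genes of p53 signalling and apoptosis 2 rose and 1 fell (12% called), the faller being the cell cycle inhibitor Cdkn1a at 34.9, 29.7 and 19.8 RPKM in HS and 8.41, 17.9 and 11 RPKM in HS+A10 (-1.14, adjusted p = 0.0367). That list held 3 higher and 0 lower genes without HS replicate 1 and 0 calls without HS+A10 replicate 1.

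Among cytochrome P450 families 1 to 3, 3 of 28 tested genes rose and 1 fell. Cyp2e1, an ethanol and ketone oxidase of pericentral hepatocytes, was at 4009.5, 3649.7 and 3014 RPKM in HS and 6236, 5515 and 5775 RPKM in HS+A10 (log2 change 0.72, SE 0.13, adjusted p = 0.00562), clear of HS in every library and called without each of the 6. Cyp2c70, which makes muricholic acids, was at 164.1, 195.6 and 418.9 RPKM in HS and 72.7, 73.3 and 156.3 RPKM in HS+A10 (-1.33, adjusted p = 0.0207). Nr1i3, the xenobiotic receptor CAR, rose by 0.99, while its targets Cyp2b10 and Cyp3a11 overlapped, at 1.33, 5.26 and 2.72 RPKM in HS and 3.07, 0.53 and 0.55 RPKM in HS+A10 and at 1195, 2413 and 1340.3 RPKM in HS and 2172, 1284 and 2308 RPKM in HS+A10. Conjugation enzymes held 1 call of 37 (2.7%, against 7.32% of all tested genes), Sult1a1, which fell by 0.55 on the log2 scale. NRF2 targets and antioxidant enzymes held 1 of 26 (3.85%), the peroxiredoxin Prdx6, at 191.9, 196.2 and 186.9 RPKM in HS and 256.9, 252 and 226.8 RPKM in HS+A10 (0.35, adjusted p = 0.026). Of 37 urea cycle and amino acid catabolism genes 4 fell, among them the ornithine carrier Slc25a15 and Nags, the activator of Cps1 through N-acetylglutamate, at log2 changes of -0.50 and -0.41. Of 20 glucocorticoid targets and metallothioneins 2 rose and 1 fell (15% called), with the receptor Nr3c1 up at 10.6, 11.1 and 11.3 RPKM in HS and 14, 14.4 and 14.7 RPKM in HS+A10 (0.36, adjusted p = 0.00863).

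In the P450 list 14.3% of members were called and in the urea cycle list 10.8%, against 7.32% of all tested genes, and these counts turned on single libraries. The P450 list held 4 higher and 3 lower genes without HS replicate 1, where its median log2 change turned from 0.11 to -0.11, and 1 higher and 0 lower without HS replicate 3. The urea cycle list held 9 lower and 1 higher without HS replicate 1 and 0 calls without HS+A10 replicate 1 or HS replicate 3. Conjugation enzymes held 4 lower and 1 higher and NRF2 targets 1 higher and 1 lower without HS replicate 1. Conjugation enzymes and NRF2 targets each held 0 calls without HS+A10 replicate 1, HS replicate 2 or HS replicate 3. Glucocorticoid targets held 2 higher and 2 lower without HS replicate 1, and 1 higher and 0 lower without HS+A10 replicate 1 or 2 or HS replicate 2 or 3. Cyp2e1 and Nr3c1 kept their calls in all 6 fits without a library.

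**Figure D5:**
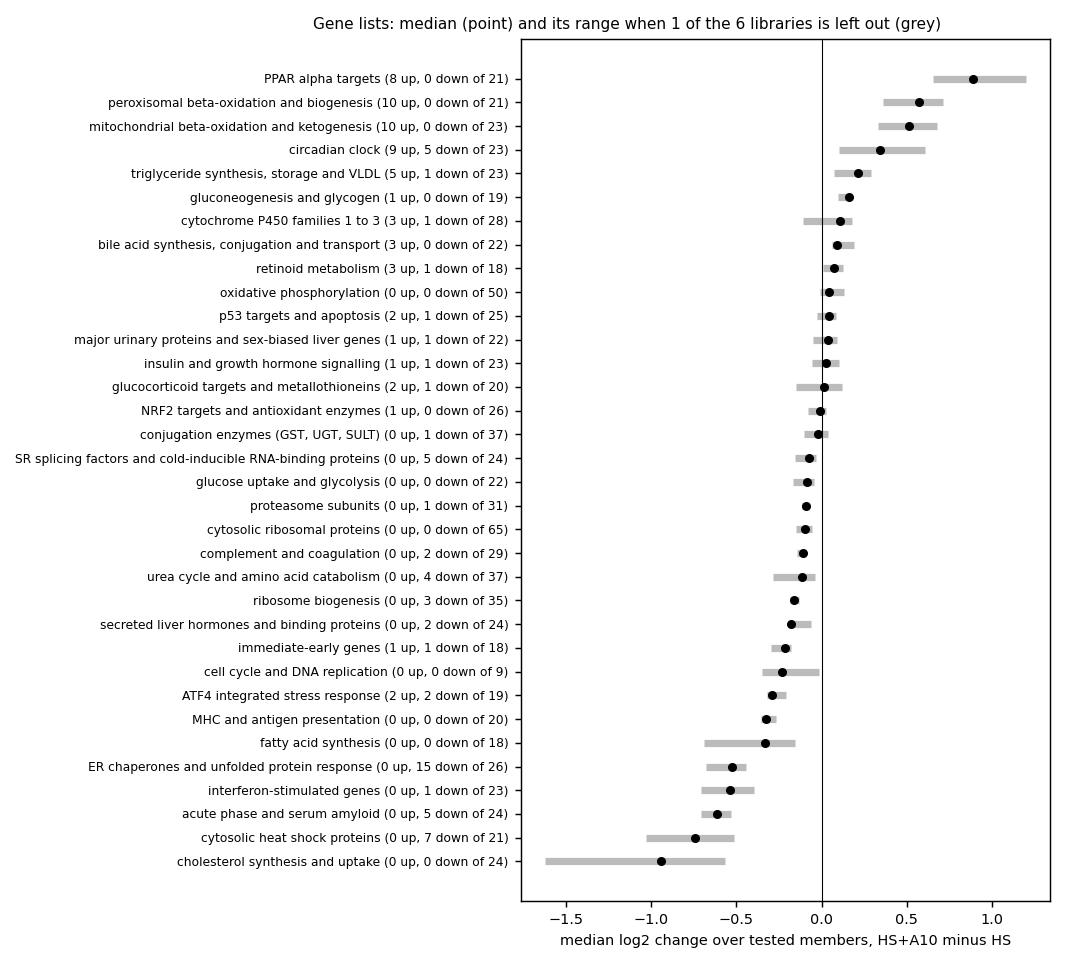
Each row is a gene list with its numbers of members called higher and lower; the point is the median log2 change over its tested members, and the grey bar runs from the lowest to the highest median when 1 of the 6 HS and HS+A10 libraries is left out. PPARα targets (0.89), peroxisomal (0.57) and mitochondrial oxidation (0.51) lie highest and cholesterol synthesis (-0.94, with 0 genes called) lowest, and the cholesterol bar is the longest.

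In bulk tissue, fewer cells of a type and less RNA per cell cannot be told apart. The summed level of 12 liver endothelial markers was 98.7, 93.3 and 110.3 RPKM in HS and 119, 148 and 154 RPKM in HS+A10. All 12 had a log2 change above 0 and 2 were called (16.7%, against 7.32% of all tested genes). Oit3 was at 4.42, 4.24 and 5.74 RPKM in HS and 7.02, 9.46 and 9.96 RPKM in HS+A10, and Pecam1 at 4.28, 3.9 and 4.29 RPKM in HS and 5.34, 5.59 and 6.42 RPKM in HS+A10. Erythroid markers summed to 4435, 12415 and 6909 RPKM in HS and 3274, 2962 and 4064 RPKM in HS+A10, with 0 of 6 tested genes called. The cholangiocyte sum was 20.3 to 43.3 RPKM in HS and 50.6 to 58.1 RPKM in HS+A10. Of its 4 tested genes 1 was called higher, Krt23, and 1 lower, Sox9, at 2.12, 1.43 and 1.44 RPKM in HS and 0.54, 0.89 and 0.91 RPKM in HS+A10. The separation of this sum rested on Krt23, whose values are given above, and the markers Krt7 and Epcam overlapped between the groups. It is therefore not a reading of the cell type as a whole. T, NK and B cell markers, none of which passed the filter, summed to 3.83 to 5.21 RPKM in HS and 2.02 to 3.41 RPKM in HS+A10. These 4 sums and that of the hepatocyte markers separated the groups at the smallest p that an exact two-sided permutation test of 3 against 3 can give, 0.1. The part of these markers in the other results was not tested. Kupffer cell, stellate cell, neutrophil, adipocyte, intestinal and pancreatic sums overlapped, and the acinar gene Amy2a2 and the muscle genes Myh4 and Myh1 were at 0 in all 6 libraries.

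To ask whether the change with AOS differed between mice with and without a high-fat diet and STZ label, the change from HS to HS+A10 was compared with that from Con to A10. The diet of the A10 mice is not given in their label. In this fit A10 differed from Con in 7 genes, 5 higher and 2 lower (1418 at an unadjusted p under 0.05). The difference between both changes was called in 1 gene (0.0098% of those tested), and 1320 genes had an unadjusted p under 0.05. That gene was Dbp, which was higher by 4.56 in HS+A10 and by 0.64 in A10 than in its own control, a difference of 3.92 (SE 0.50, adjusted p = 0.00978). Usp2 followed with a difference of 2.78, at 1.31, 2.01 and 1.66 RPKM in Con and 0.82, 0.42 and 0.77 RPKM in A10, but did not pass (SE 0.47, adjusted p = 0.0591). Without HS replicate 1 this count was 118, and without HS replicate 3 it was 0. Without HS+A10 replicates 1, 2 and 3 it was 4, 15 and 2, and without A10 replicate 1 it was 4.

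HS+A10 was also set beside A10-FMT, the mice that received microbiota of AOS-dosed donors in place of AOS itself. This comparison shares the HS+A10 libraries with that against HS. There 1120 genes (11%) were higher in HS+A10 and 73 (0.715%) lower, a balance of 93.9% higher that fell to 67.9% after median scaling, with 374 higher and 177 lower. The number also depended on single libraries, with 544 and 626 calls without HS+A10 replicates 2 and 3, and 517 and 346 without A10-FMT replicates 2 and 3. Of the genes that burn fatty acids, 12 of 21 PPARα targets, 13 of 23 mitochondrial and 13 of 21 peroxisomal genes were called higher and 0 lower, as were 11 of 23 genes of triglyceride handling. Markers of other cell types were higher too, with 11 of 12 liver endothelial and 3 of 13 Kupffer cell markers called higher and 0 lower. The 12 endothelial markers summed to 119, 148 and 154 RPKM in HS+A10 and 83.9, 78.2 and 70.4 RPKM in A10-FMT, and the 13 Kupffer cell markers to 214, 164 and 226 and to 146.5, 126.2 and 115.8 RPKM. Neither sum overlapped, and their part in the other differences of this comparison was not tested. Cyp4a14 was at 386.2, 283.2 and 432.4 RPKM in HS+A10 and 20.8, 5.59 and 1.13 RPKM in A10-FMT (5.75, adjusted p = 0.00254), and Cd36 at 34.6, 34 and 19.8 and 9.28, 3.16 and 3.02 RPKM (2.41, adjusted p = 0.00139). Mup20 was lower in HS+A10, at 928.8, 627.8 and 1229.6 RPKM compared to 3359.9, 4803 and 4664 RPKM (-2.24, adjusted p = 0.00303). Of the 23 clock genes 1 was called, Clock, higher in HS+A10 (0.52, adjusted p = 0.0147), and Dbp overlapped, with a log2 change of -0.25, adjusted p = 0.665.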

How the data were processed

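Poly(A) RNA of liver (18 libraries, 6 groups of 3 libraries, grouped by the sample labels) had been sequenced on an Illumina instrument. Reads were mapped by the authors (SOAPaligner in the methods; Bowtie 0.12.2 and the mm10 build in the submitters' processing notes, with no role given), who deposited RPKM values with 2 decimals for 19057 genes, 26 of which carry a date in place of a symbol. Read numbers are not given in the sources used here, so no counting interval was computed and depth was estimated from value steps only.

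The test ran on log2(RPKM + 1) of genes that averaged 1 RPKM or more, a scale that understates the change of low genes, with limma 3.58.1 in R 4.3.3: 1 mean per group over all 18 libraries, so that the 6 groups share 1 estimate of the spread, with a variance trend. Two-sided p-values were corrected over all tested genes (Benjamini-Hochberg), and genes below 0.05 were called. DEGseq, used by the authors, was left out, since it does not use the variation among libraries of a group. On simulated data with 200 of 10204 genes changed by 1, 92% were called in the right direction with 5 wrong calls, by 0.5 54.5% with 8 wrong calls, and with none changed 0 were called. The simulated noise was independent between genes, without a shift shared by many genes of a library such as that of HS replicate 1. These rates therefore do not cover such shifts.

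The comparison, the gene lists and the tests were chosen with earlier results of these data known. Lists are described by counts and medians, with no set test. Named genes were those the study names in liver, the 12 per direction with the largest change among genes called as deposited and after median scaling, without overlap and with a group mean of at least 5 RPKM, and in each list its key genes and the 3 called members per direction with the smallest adjusted p. Other members (Tef, Hlf, Cry2, Nfil3, Acaa1b, Pex11a, Fabp1, Hspb1, Manf, Hyou1, Hsp90b1, Calr, Atf6, Ern1, Pdk4) and the markers Oit3, Pecam1 and Sox9 were added after their values were seen. Promoters came from RefSeq (GRCm38.p6) and positions from GENCODE M21, read with Python 3.11.15. Some key genes are not reported here.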

Additional observations from a re-analysis of the deposited data

Results flagged for a closer look

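The difference of Dbp between the dosed and the undosed group was not the same in diabetic livers as in those without a high-fat diet and STZ label. This was by the test of the difference itself. Its log2 change was 4.56 from HS to HS+A10 and 0.64 from Con to A10, a difference of 3.92 (adjusted p = 0.00978). Dbp also stood at 51.8, 55.5 and 53 RPKM in Con-FMT, where no AOS was given, and the hour of collection is not given in the sources used here. Dbp did not pass this test without HS replicate 3.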

How the results depend on the processing

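Of the calls of HS+A10 against HS, the pseudocount, filters, variance trend and the removal of Con-FMT replicate 3 (chosen after its pancreatic marker sum was seen) kept the count within 1.5 times of 747. Quantile normalization gave 601 genes higher, median scaling 579, and scaling to the sum without the 10 most abundant genes 510 higher and 274 lower. With only the contrast's own groups in the fit, 76 were called (46 higher, 30 lower), and the threshold of the study (adjusted p of at most 0.001, absolute log2 change of at least 1) left 2, 1 higher and 1 lower. Leaving out 1 library gave 152 to 1233 calls, 71 to 450 higher and 81 to 783 lower. For the difference between the changes from HS to HS+A10 and from Con to A10, the count of 1 became 4 with a pseudocount of 0.1 (2 higher, 2 lower), 2 with no filter or a mean of at least 5 RPKM (1 lower each), 5 with the sum scaling (3 higher, 2 lower), 8 with the contrast's groups alone (7 lower), 0 at the study's threshold (0 higher) and 11 without Con-FMT replicate 3 (4 higher, 7 lower). Leaving out 1 library gave 0 to 118, 0 to 22 higher and 0 to 96 lower. For HS+A10 against A10-FMT, quantile normalization gave 511 (355 higher, 156 lower), median scaling 551 (374 higher, 177 lower), the contrast's groups alone 650 (578 higher), and the study's threshold 2 (2 higher, 0 lower). Leaving out 1 library gave 346 to 1705, 324 to 1637 higher and 22 to 68 lower. The threshold and the smaller fits change the test itself; otherwise the cause was not tested. With the replicate block 657 genes were called against HS (263 higher, 394 lower), but same-numbered libraries deviated together at r of 0.23, -0.03 and 0.26, not all over 0.1, so the numbers were not taken as pairs; HS+A10 replicates 1 and 3, and not 2, deviated most with their own number. No called gene of those named changed sign under any alternative. The depth of about equal libraries is unknown in reads, and low genes have the least precision.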
